A study of Mus musculus with 8 samples.

Results

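The genes described here are 9 genes of MHC class II antigen presentation, measured by total RNA sequencing in mouse bone marrow-derived Mϕ (BMDMs): the transactivator gene Ciita, the invariant chain gene Cd74, the chain genes H2-Aa, H2-Ab1 and H2-Eb1, the peptide editor genes H2-DMa, H2-DMb1 and H2-DMb2, and the editor's inhibitor gene H2-Oa. They were found by matching the Ensembl identifiers of the expression table to mouse gene symbols, and all 9 were among its 55359 genes. All 9 also entered the tests, which covered the 16309 genes whose mean level reached 10 normalized counts. BMDMs of C57BL/6 wildtype adults of both sexes had been differentiated with 20 ng/mL M-CSF and 20 ng/mL GM-CSF, and every group was handled as CD45+ cells isolated with magnetic beads. Ctrl was naïve Mϕ without stimulus, and LPS was naïve Mϕ stimulated for 6 h with LPS (100 ng/mL) and IFNγ (100 U/mL). Eff was efferocytic Mϕ, which had been kept for 16 h with apoptotic NIH-3T3 fibroblasts at 5 per Mϕ in 10 nM dimerizer, the drug that triggers caspase-8 in this modified fibroblast line, and LPSEff received the apoptotic cells, a wash and then the LPS/IFNγ stimulus. Each group had n = 2 samples, numbered 1 and 2 in the sample names, and nothing in the sources used here says whether the samples came from separate animals or cultures, so that p-values measure only the spread between these samples, which may be technical.

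MHC class II molecules are pairs of an α and a β chain that show peptides from the endosomal system to CD4+ T cells. The invariant chain encoded by Cd74 fills the groove of the new molecules and guides them to endosomes, where cathepsins cut it down to a short peptide. H2-DM, the pair of H2-DMa with H2-DMb1 or H2-DMb2, exchanges that peptide for antigen, and H2-DO, the pair of H2-Oa and H2-Ob, restrains H2-DM. The whole set depends on Ciita, a coactivator that binds no DNA itself but docks on RFX and NF-Y factors at the X and Y boxes of these promoters. IFNγ is the classical inducer of Ciita in Mϕ, through the kinases Jak1 and Jak2 and the factor Irf1. Dendritic cells and B cells carry more class II than Mϕ at rest, and bone marrow cultures grown with GM-CSF are known to hold class II-rich cells with features of dendritic cells.

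Promoter windows from RefSeq, which run from 250 bases before a gene's start to 50 bases after it, could be matched for 6 of the 9 genes in 7 windows (the table's build is GRCm38.p6), and each of the 7 had exactly 1 copy in GRCm39, on chromosome 17. The windows were searched on both strands for the core letters of the X box (GNAAC, an RFX half-site) and of the Y box (ATTGG, bound by NF-Y). GNAAC is short and was found in 84.8% of all 32851 windows, and ATTGG in 37.4%. GNAAC followed on the same strand by ATTGG with 15 to 35 bases between them was found in 3.51% of all windows and in 4 of the 7 class II windows, those of H2-Oa, H2-DMb1, H2-Aa and H2-Eb1. In these 4, the pair stood in the sense direction 27 or 28 bases apart, with GNAAC starting 76 (H2-Oa), 94 (H2-DMb1), 81 (H2-Aa) and 91 (H2-Eb1) bases before the RefSeq start. The stretches of 3 of them are shown because they hold the X-Y pair on which Ciita is known to act, with the letters of GNAAC and ATTGG in capitals.
H2-Aa, minus strand, chr17:34506829-34506890: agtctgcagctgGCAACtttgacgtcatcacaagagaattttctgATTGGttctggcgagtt
H2-Eb1, plus strand, chr17:34524738-34524798: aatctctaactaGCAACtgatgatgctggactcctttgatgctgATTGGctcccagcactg
H2-Oa, plus strand, chr17:34311265-34311314: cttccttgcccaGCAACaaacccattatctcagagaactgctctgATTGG

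The H2-DMb1 stretch lies inside the first exon of the GENCODE annotation and is not shown. The H2-DMb2 window held both motifs, but not in this arrangement, and neither window of H2-DMa held the pair. These are matches of letters and no evidence of binding.

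In the GRCm39 genome, Ciita is at chr16:10297923-10347694 and Cd74 at chr18:60936899-60945731, both on the plus strand. The other 7 genes lie in the MHC on chromosome 17 within 224.3 kb (chr17:34311314-34535648). From the start of that stretch they are H2-Oa (chr17:34311314-34314328), H2-DMa (chr17:34338515-34358958), H2-DMb2 (chr17:34362197-34370529), H2-DMb1 (chr17:34372046-34379204), H2-Ab1 (chr17:34476663-34488393), H2-Aa (chr17:34493404-34506798) and H2-Eb1 (chr17:34504236-34535648), all on the plus strand except H2-Aa. Exons overlap genes on the opposite strand at Ciita (633 bases, with Dexi), H2-DMa (510 bases, with Brd2), H2-Oa (396 bases, with BC051537) and between H2-Aa and H2-Eb1 (118 bases), and exons of H2-DMb1 (285 bases) and H2-Eb1 (130 bases) overlap lncRNA genes, where reads are told apart by strand alone. Exons of Cd74 share 88 bases with the miRNA gene Mir5107 on the same strand, where strand does not tell reads apart.

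Levels were normalized counts, i.e., reads per gene divided by a size factor per sample, and the reads before that division could be recovered (3481288 to 12020918 per sample). At these depths 3 reads are worth 1.73 to 5.71 normalized counts, whereas the lowest value of any of the 9 genes was 61.3. In Ctrl replicate 1, H2-Oa had 46 reads and H2-DMb2 60, so that counting error is larger for these than for Cd74 with 3284. The cells carried the Mϕ markers, of which 12 of 12 were tested, with summed levels of 113200 to 167800 normalized counts. Of 10 B cell markers only Ighm reached a mean of 10, and of 12 dendritic cell markers 10 did, with Cd209a and Clec9a too low to be tested. Tests were made with limma on log2(normalized count + 1) with the 4 group means in 1 fit, and calls were made where p, after Benjamini-Hochberg adjustment over all tested genes, was under 0.05. As same-numbered samples deviated together, each comparison was also fitted with the replicate number as a block, i.e., within same-numbered pairs.

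The members took 0.255% of all reads in Ctrl replicate 1 and 0.678% in Ctrl replicate 2. The same share was 0.439% and 1.14% for LPS, 0.173% and 0.455% for Eff, and 0.321% and 0.642% for LPSEff. The 95% Wilson interval was 0.250% to 0.260% in the shallowest sample, Ctrl replicate 1, so that these shares differ by far more than counting error. Cd74 and the 3 chain genes made up 87.4% to 93.7% of these reads. Per kb of merged exon, the order of the mean levels over the 8 samples was Cd74 (5568 normalized counts per kb), H2-Ab1 (4370), H2-Eb1 (2851), H2-Aa (1574), H2-DMa (203), H2-DMb1 (179), Ciita (156), H2-DMb2 (150) and H2-Oa (112). H2-Ab1 was above H2-Eb1, H2-Eb1 above H2-Aa and H2-Aa above H2-DMa in 8 of 8 samples. The other neighbours could not be ordered beyond their spread: Cd74 exceeded H2-Ab1 in 6 of 8 samples, H2-DMa exceeded H2-DMb1 in 7, H2-DMb1 exceeded Ciita in 7, Ciita exceeded H2-DMb2 in 5 and H2-DMb2 exceeded H2-Oa in 6.

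The class II genes differed between the replicates of every group, with a median log2 difference of 1.40 over the 9 members. In all 4 groups, replicate 2 was above replicate 1 for 9 of 9 members, against 29.1% of all genes tested. Replicate 2 was at least 1.5 times replicate 1 in all 4 groups for 7 of 9, against 2.37% of all genes. In limma with the block, the term for the replicate number was called for 9 of 9 members, higher in replicate 2, against 23.48% of all genes called and 15.64% called higher in replicate 2. H2-DMb2 had the largest such difference of the 9, with a log2 difference of 1.84 ± 0.14 (SE; adjusted p = 4.9e-05), followed by H2-Ab1 with 1.57 ± 0.14 (adjusted p = 0.000106) and H2-Aa with 1.55 ± 0.11 (adjusted p = 3.4e-05). The smallest was that of H2-DMa, with 0.72 ± 0.12 (adjusted p = 0.00322).

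Other cell markers moved with the replicate number too. Of the 10 dendritic cell markers tested, 6 were called higher in replicate 2 and 1, Clec10a, lower, and the only B cell marker tested, Ighm, was called higher. Its normalized counts in replicates 1 and 2 were 62.8 and 271 for Ctrl, 41.4 and 233 for LPS, 74.5 and 126 for Eff, and 36.4 and 87.6 for LPSEff. Of the 12 Mϕ markers, 2 were called higher in replicate 2. Fewer cells of a type and less RNA per cell cannot be told apart in such bulk samples, and the part of a different mix of cells in the difference between the replicates was not tested.

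**Figure D1:**
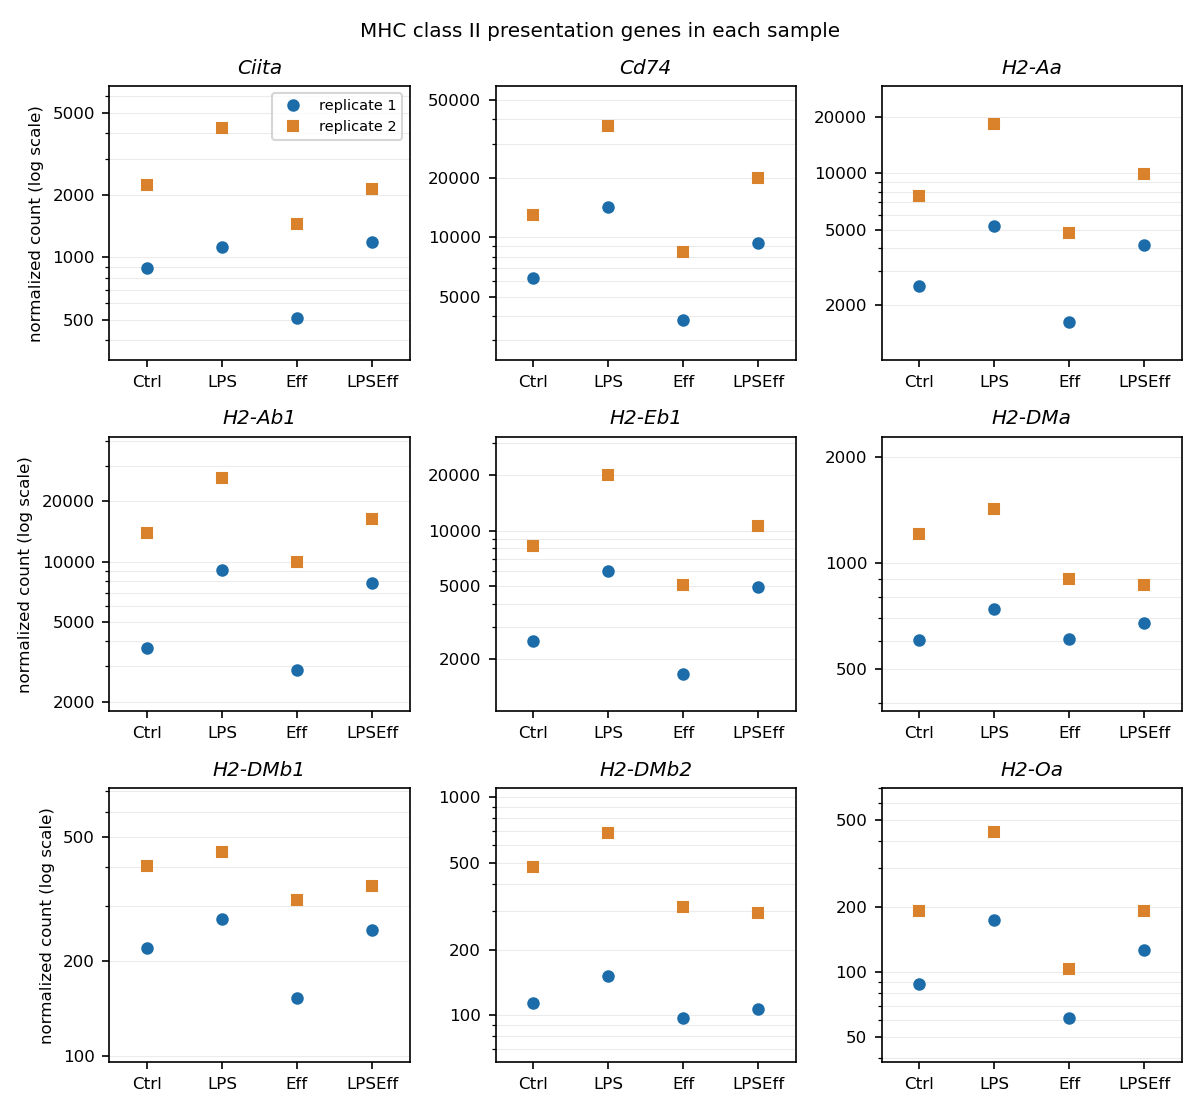
Normalized counts (vertical axes, log scale, a range of its own for each gene) of the 9 class II presentation genes in the 8 samples, by group (horizontal axes), with circles for replicate 1 and squares for replicate 2. In each of the 4 groups, replicate 2 lies above replicate 1 for all 9 genes.

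To ask how inflammatory stimulation affected the set in naïve Mϕ, LPS was compared with Ctrl. Cd74 was the clearest case, with 6253 and 12960 normalized counts in Ctrl and 14320 and 36740 in LPS. Its groups did not overlap, and the log2 difference was 1.35 ± 0.61 (SE, n = 2 per group; limma, adjusted p = 0.153). Within same-numbered samples it was 2.29 times higher in replicate 1 and 2.83 times higher in replicate 2, and with the block its adjusted p was 5.92e-05 in limma. DESeq2 without the block called it as well (adjusted p = 0.0141).

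The chain genes differed by similar amounts. H2-Eb1, the β chain of the I-E molecule, had 2527 and 8203 normalized counts in Ctrl and 6036 and 20160 in LPS, a log2 difference of 1.28 ± 0.79 (limma, adjusted p = 0.291). H2-Aa and H2-Ab1, which encode the I-A molecule, had 2521 and 7563 (H2-Aa) and 3698 and 13860 (H2-Ab1) in Ctrl against 5261 and 18240 (H2-Aa) and 9126 and 26100 (H2-Ab1) in LPS. Their log2 differences were 1.17 ± 0.79 for H2-Aa and 1.11 ± 0.81 for H2-Ab1 (limma, adjusted p = 0.34 and 0.38). The groups of all 3 chain genes overlapped, since Ctrl replicate 2 was above LPS replicate 1, but within each same-numbered pair LPS was 1.88 to 2.47 times Ctrl. H2-Oa, whose product tempers peptide exchange, had 87.6 and 189.7 normalized counts in Ctrl and 173 and 439 in LPS, and its log2 difference was 1.09 ± 0.53 (adjusted p = 0.18).

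Ciita itself differed less between Ctrl (887 and 2235 normalized counts) and LPS (1125 and 4211). It was 1.27 times higher in replicate 1 and 1.89 times higher in replicate 2, a log2 difference of 0.63 ± 0.73 (adjusted p = 0.596). The editor genes had the smallest differences: H2-DMa had 607 and 1214 normalized counts in Ctrl and 741 and 1428 in LPS, H2-DMb1 had 221 and 404 in Ctrl and 273 and 447 in LPS, and H2-DMb2 had 114 and 479 in Ctrl and 151 and 688 in LPS. Their log2 differences were 0.26 ± 0.41 for H2-DMa, 0.23 ± 0.43 for H2-DMb1 and 0.46 ± 0.94 for H2-DMb2, and those of H2-DMa and H2-DMb1 turned to -0.14 and -0.18 when samples were rescaled to equal totals, a scaling that moved the median of all genes to -0.40.

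By the test without the block, 0 of 9 members were called in LPS vs Ctrl (0 at an unadjusted p under 0.05, 0 by edgeR, 1 by DESeq2), against 24.0% of all genes tested. With the block, 6 of 9 rose (Cd74, H2-Eb1, H2-Aa, H2-Ab1, H2-Oa and Ciita), against 20.5% of all genes called higher, and edgeR and DESeq2 with the block called the same 6. Their adjusted p-values in limma with the block lay between 5.92e-05 (Cd74) and 0.0313 (Ciita). LPS exceeded Ctrl in both same-numbered pairs for 9 of 9, against 38.2% of all genes, while only Cd74 had groups that did not overlap (59.3% of all genes). The median log2 difference of the 9 was 1.09, and that of all genes -0.01. With the block, 5 of the 10 dendritic cell markers tested were called higher in LPS vs Ctrl (Xcr1, Ccr7, Zbtb46, Flt3 and Dpp4) and 2 lower (Kit and Clec10a), and 5 of the 12 Mϕ markers were called higher (Cd14, Mertk, Adgre1, Ptprc and Fcgr1), while 2 were called lower, Tyrobp among them. Their part in the class II difference was not tested. Leaving out any 1 sample left 5 to 7 members called with the block, and Ciita was lost without Ctrl replicate 1, Ctrl replicate 2 or LPS replicate 2.

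The same stimulus in efferocytic Mϕ gave LPSEff vs Eff. Cd74 had 3798 and 8425 normalized counts in Eff and 9369 and 20160 in LPSEff, without overlap, and a log2 difference of 1.28 ± 0.61 (limma, adjusted p = 0.188). H2-Eb1 had 1668 and 5054 in Eff and 4952 and 10600 in LPSEff, 2.97 times higher in replicate 1 and 2.1 times higher in replicate 2. H2-Aa had 1612 and 4781 in Eff and 4132 and 9946 in LPSEff, and H2-Ab1 had 2865 and 9961 in Eff and 7801 and 16370 in LPSEff. In each of these 3 chain genes the groups overlapped, with Eff replicate 2 above LPSEff replicate 1, and both pairs were higher in LPSEff. H2-Oa had 61.3 and 103 in Eff and 126 and 192 in LPSEff, again without overlap. Ciita had 509 and 1447 in Eff and 1184 and 2133 in LPSEff.

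Among the editor genes, H2-DMa had 608 and 902 normalized counts in Eff and 677 and 867 in LPSEff, and H2-DMb2 had 97.3 and 315 in Eff and 107 and 293 in LPSEff. Both were higher in the first pair and lower in the second, and their log2 differences of 0.05 ± 0.41 and 0.02 ± 0.94 became -0.40 and -0.43 with samples at equal totals, a scaling that moved the median of all genes to -0.44. H2-DMb1 had 153 and 314 in Eff and 252 and 348 in LPSEff, with a log2 difference of 0.43 ± 0.43 that became -0.015 at equal totals.

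In LPSEff vs Eff, 0 of 9 were called without the block (0 at an unadjusted p under 0.05, 0 by edgeR, 1 by DESeq2, which was Cd74), against 19.7% of all genes. With the block, 6 of 9 rose, namely Cd74, H2-Eb1, H2-Aa, H2-Ab1, H2-Oa and Ciita, against 19.0% of all genes called higher. Their adjusted p-values in limma with the block lay between 1.0e-04 (Cd74) and 0.00621 (Ciita). LPSEff exceeded Eff in both pairs for 7 of 9 (40.6% of all genes), and 2 of 9 had groups that did not overlap (59.9%). When 1 sample was left out, 4 to 6 stayed called with the block, the 4 being Cd74 and the 3 chain genes, and at equal totals with the block these 4 were called as well. Ciita and H2-Oa were lost without LPSEff replicate 1, and H2-Oa also without Eff replicate 2. With the block, 4 of the 10 dendritic cell markers were called higher in LPSEff vs Eff (Xcr1, Ccr7, Dpp4 and Zbtb46) and 1 lower (Kit), and 5 of the 12 Mϕ markers were called higher (Cd14, Mertk, Adgre1, Ptprc and Fcgr1), while 2 were called lower, Tyrobp among them. Their part in this difference was not tested.

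**Figure D2:**
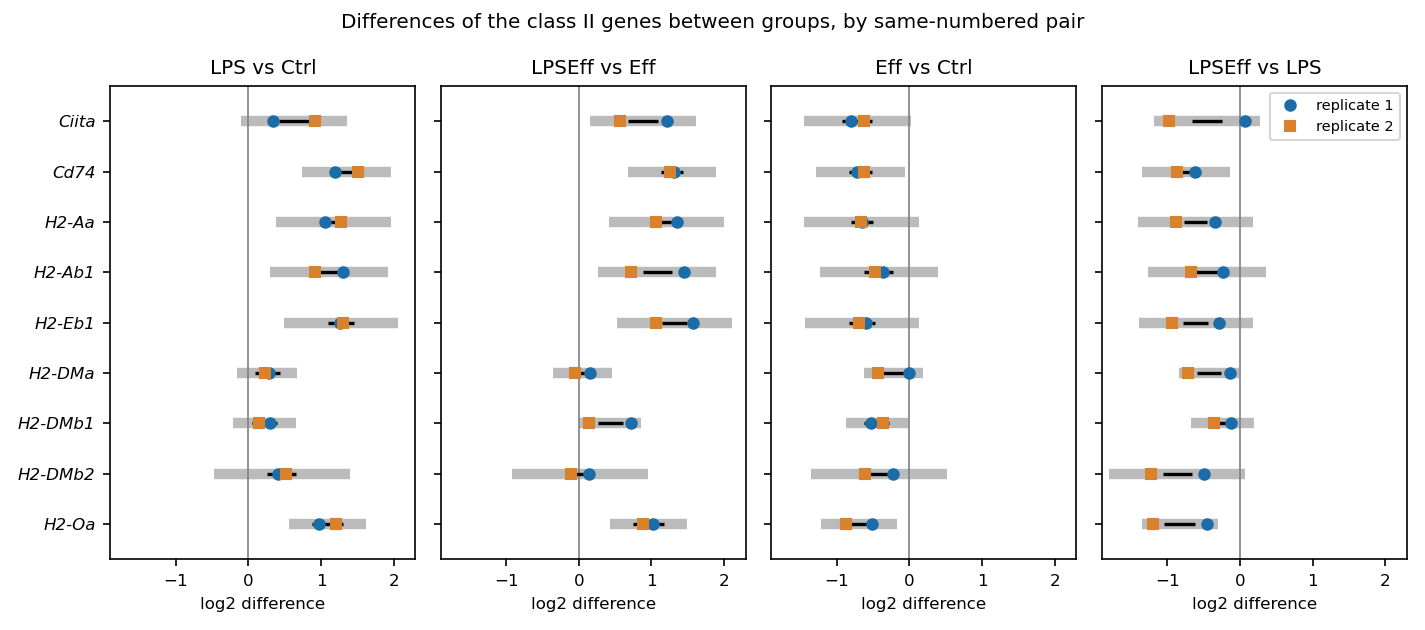
Log2 differences (horizontal axes) of the 9 genes in 4 comparisons, with circles for the pair of replicates 1, squares for the pair of replicates 2, grey bars for the mean ± SE without the replicate block and thin black bars for the mean ± SE with it. Cd74 and the chain genes lie to the right of 0 in both comparisons of stimulated with unstimulated Mϕ. The means of the 3 editor genes lie closest to 0 there, though not every point of theirs does. In the comparisons of efferocytic with naïve Mϕ, 16 of 18 pairs of points lie to the left of 0 in both pairs.

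Whether uptake of apoptotic cells changed the set was asked in naïve Mϕ first (Eff vs Ctrl). Every member had a lower mean in Eff. From Ctrl to Eff, Cd74 went from 6253 to 3798 normalized counts in replicate 1 and from 12960 to 8425 in replicate 2, which is 0.607 and 0.65 of the Ctrl level. Ciita stood at 0.574 and 0.647 of Ctrl, H2-Aa at 0.639 and 0.632, H2-Eb1 at 0.66 and 0.616, and H2-Ab1 at 0.775 and 0.718. H2-Oa stood at 0.7 and 0.543, the first of these from 70 reads in Eff and 46 in Ctrl. In 0 of 9 did the groups stay apart (34.1% of all genes did), because Ctrl replicate 1 was below Eff replicate 2 for each member.

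In Eff vs Ctrl, 0 of 9 were called without the block (0 at an unadjusted p under 0.05, 0 by edgeR and 0 by DESeq2), against 0.251% of all genes. With the block, 0 of 9 passed in limma, with 6 at an unadjusted p under 0.05 and the lowest adjusted p at 0.0511 for Cd74, against 0.975% of all genes called lower. The log2 difference of Cd74 was -0.67 ± 0.16 (SE with the block). With the block, edgeR called 1 (Cd74, adjusted p = 0.0422) and DESeq2 called 3 (Cd74, H2-Aa and H2-Eb1). Without LPS replicate 1 or LPS replicate 2, which enter only through the shared estimates, limma with the block called 3 (Ciita, Cd74 and H2-Aa). Eff was below Ctrl in both pairs for 8 of 9, against 33.4% of all genes, the exception being H2-DMa with 607 and 608 normalized counts in replicate 1.

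In stimulated Mϕ (LPSEff vs LPS) the second pair differed more than the first. Cd74 in LPSEff was at 0.654 of its LPS level in replicate 1 and at 0.549 in replicate 2, H2-Aa at 0.785 and 0.545, H2-Oa at 0.726 and 0.437, and H2-DMb2 at 0.706 and 0.426. Ciita was at 1.05 in replicate 1 and at 0.507 in replicate 2. LPS replicate 2, which enters this comparison, was the sample with the highest level of each of the 9 members.

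In LPSEff vs LPS, 0 of 9 were called without the block (0 at an unadjusted p under 0.05, 0 by edgeR and 0 by DESeq2), against 0.773% of all genes. With the block 4 fell (H2-DMb2, H2-Oa, Cd74 and H2-Aa), against 2.65% of all genes called lower, with adjusted p-values in limma from 0.0199 (Cd74) to 0.0436 (H2-Oa). LPSEff was below LPS in both pairs for 8 of 9 (33.6% of all genes), and 0 of 9 had groups that did not overlap (36.3%). The size of the differences depended on single samples. With the block, the 9 log2 differences ran from -0.64 to -0.12 without LPS replicate 2 and from -0.70 to -0.035 without LPSEff replicate 2. They ran from -1.1 to -0.44 without LPSEff replicate 1 and from -1.1 to -0.20 without LPS replicate 1. In each of these fits 1 pair carries the comparison, so that they cannot show whether the calls hold.

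Averaged over stimulated and unstimulated Mϕ, 0 of 9 were called for efferocytosis without the block (0 at an unadjusted p under 0.05, 0 by edgeR and 0 by DESeq2), against 1.92% of all genes. With the block 6 fell (H2-Oa, Cd74, H2-DMb2, H2-Aa, H2-Eb1 and Ciita), against 5.2% of all genes called lower. The log2 difference was -0.70 ± 0.11 for Cd74 (SE with the block, adjusted p = 0.00274), -0.76 ± 0.15 for H2-Oa (0.0101), -0.63 ± 0.11 for H2-Aa (0.00495), -0.63 ± 0.12 for H2-Eb1 (0.00963), -0.64 ± 0.14 for H2-DMb2 (0.0163) and -0.58 ± 0.15 for Ciita (0.0282). H2-Ab1, with -0.44 ± 0.14, did not pass (adjusted p = 0.0763). Without 1 sample, 2 to 7 were called with the block, the 2 being Cd74 and H2-Aa without LPSEff replicate 2, 3 without LPS replicate 2 and 4 without Ctrl replicate 2 or Eff replicate 2.

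Markers of dendritic cells moved with efferocytosis in the same direction. Their summed level was 6105 and 10930 normalized counts in Ctrl against 3558 and 7025 in Eff, and 11300 and 24940 in LPS against 8685 and 13390 in LPSEff, mostly from Ccr7 and Itgax. Of the 10 tested, 10 were lower in Eff than in Ctrl in both pairs (33.4% of all genes) and 9 lower in LPSEff than in LPS in both pairs (33.6%). With the block, 8 fell for efferocytosis averaged over stimulation, against 5.2% of all genes called lower. Of these 8, Batf3, a dendritic cell transcription factor, was also called without the block (log2 difference -1.47 ± 0.19, SE, limma, adjusted p = 0.0101). Flt3, the receptor that supports dendritic cell growth, went from 40 and 62.5 normalized counts in Ctrl to 17.5 and 50.8 in Eff, and from 82.8 and 220 in LPS to 31.7 and 59.6 in LPSEff. Of the 12 Mϕ markers, 0 were called between Eff and Ctrl and 0 between LPSEff and LPS, with or without the block. Their part in the class II difference was not tested.

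Most fibroblast markers moved in the other direction. Of the 14 tested, 7 were called higher in Eff than in Ctrl and 7 higher in LPSEff than in LPS without the block. Over all genes, 0.251% and 0.773% were called in either direction. In both pairs, 1 of the 14 was lower in Eff than in Ctrl (33.4% of all genes) and 4 were lower in LPSEff than in LPS (33.6%). Pdgfrb, 1 of these 4, had 246 and 245 normalized counts in LPS and 82.3 and 157 in LPSEff. In LPS vs Ctrl, Pdgfrb, Fbn1, Lox and Col5a1 were called higher without the block. Col1a1, a collagen of fibroblasts, went from 7.62 and 12.1 normalized counts in Ctrl to 193 and 284 in Eff, and from 16.8 and 38.6 in LPS to 606 and 537 in LPSEff. The part of fibroblast RNA in the lower class II levels was not tested. The summed Mϕ markers were 117000 and 119100 normalized counts in Ctrl and 113200 and 141200 in Eff, and 115300 and 122900 in LPS against 116500 and 167800 in LPSEff, but the largest part of the sums in Ctrl and Eff came from Lyz2, the lysozyme gene, with 83920 and 78660 in Ctrl and 79110 and 104000 in Eff. The Mϕ marker Csf1r, the M-CSF receptor gene, had 5539 and 6113 in Ctrl and 4981 and 4980 in Eff, and Ptprc, which encodes CD45, had 3669 and 5564 in Ctrl and 2526 and 3968 in Eff, both lower in Eff in both pairs. Other Mϕ markers went the other way: of the 12, 3 were lower in Eff in both pairs and 4 higher in both. Cd14, 1 of those higher in both, had 1809 and 2056 in Ctrl and 3010 and 2587 in Eff.

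**Figure D3:**
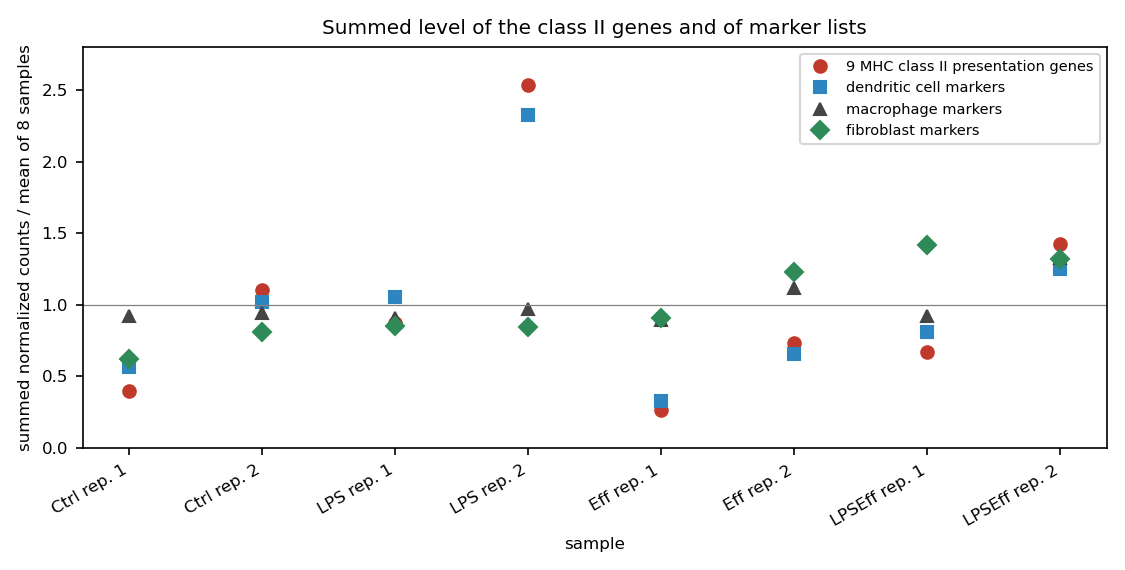
Summed normalized counts of the 9 class II presentation genes and of 3 marker lists in the 8 samples (horizontal axis), each divided by the mean of that list over the 8 samples (vertical axis, so that 1 is the mean). The class II genes range from 11370 in Eff replicate 1 to 108400 in LPS replicate 2, the dendritic cell markers have their lowest and highest sums in the same samples, and the Mϕ markers, in whose sum Lyz2 is the largest part, stay between 113200 and 167800.

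Whether the response to LPS/IFNγ differed between efferocytic and naïve Mϕ was tested as the difference between both effects. Of the 9 members 0 were called by limma (0 at an unadjusted p under 0.05), 0 by edgeR and 0 by DESeq2, with and without the block, against 0.0% of all genes in limma. The differences lay between -0.44 for H2-DMb2 and 0.26 for Ciita on the log2 scale, with SEs from 0.58 to 1.33 without the block and from 0.22 to 0.30 with it, so that differences of this size were not detectable with 2 samples per group.

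Ratios between members, on levels per kb, are given as a description without a test. H2-Aa relative to H2-Ab1 stayed between 0.287 and 0.418, and H2-Eb1 relative to H2-Ab1 between 0.502 and 0.764 in the 8 samples. By contrast, H2-DMb2 relative to H2-DMb1 followed the replicate number: per kb it was 0.466, 0.499, 0.574 and 0.382 in the replicates 1 of Ctrl, LPS, Eff and LPSEff, and 1.07, 1.38, 0.902 and 0.759 in the replicates 2. These paralogs share 369 words of 50 bases (22.65% of those of H2-DMb1 and 18.88% of those of H2-DMb2), which makes their split of reads uncertain, and no other pair among 14 class II genes compared shared any.

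H2-DMa relative to H2-Oa, i.e., a subunit of the editor against a subunit of its inhibitor, followed the treatments. Per kb the ratio was 2.45 and 2.26 in Ctrl against 1.51 and 1.15 in LPS, and 3.5 and 3.09 in Eff against 1.9 and 1.6 in LPSEff. None of the 4 groups of 2 samples overlapped another in this ratio, with stimulated below unstimulated and efferocytic above naïve. H2-Oa had only 46 reads in Ctrl replicate 1 and 70 in Eff replicate 1, so that counting error widens these ratios and the separation was not tested. Cd74 relative to H2-DMa per kb was 17.7 and 18.4 in Ctrl against 33.3 and 44.3 in LPS, and 10.8 and 16.1 in Eff against 23.8 and 40.1 in LPSEff, so that stimulated samples exceeded unstimulated ones in all cases.

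The class II genes outside the set were H2-Ob, H2-Eb2 and H2-Ea. H2-Ob, the partner of H2-Oa, had 51.4 and 239 normalized counts in Ctrl against 154 and 478 in LPS, and 58.7 and 145 in Eff against 155 and 305 in LPSEff. H2-Eb2, a further E β chain gene, had 19 and 48 in Ctrl against 63.4 and 320 in LPS, and 9.64 and 28.2 in Eff against 42.8 and 93.9 in LPSEff. Both were called higher with LPS/IFNγ in naïve and in efferocytic Mϕ by limma with the block and in neither by limma without it, while DESeq2 without the block called H2-Eb2 in both (adjusted p = 0.0035 and 0.0492) and H2-Ob in neither. H2-Eb2 fell with efferocytosis averaged over stimulation in limma with the block (adjusted p = 0.0201). H2-Ea, the E α chain gene, which C57BL/6 mice are known not to transcribe, had at most 3 reads in every sample.

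Within the stretch of chromosome 17 that holds the 7 members, GENCODE lists 29 genes, of which 20 are in the table and 16 were tested. The 9 that are not members include the genes for class I peptide supply, namely the transporter genes Tap1 and Tap2 and the immunoproteasome genes Psmb8 and Psmb9. These 4 were called higher in LPS than in Ctrl without the block. Tap1 had 885 and 1146 normalized counts in Ctrl and 7419 and 9575 in LPS, a log2 difference of 3.06 (limma, adjusted p = 0.000117), and Psmb9 had 503 and 640 in Ctrl and 1957 and 2844 in LPS, 2.05 on the log2 scale (adjusted p = 0.00136). Tap2 (log2 difference 2.36) and Psmb8 (1.23) were called too, as were Brd2, a bromodomain gene, and the lncRNA genes Gm50336, Gm20496 and Gm15821, but not H2-Ob. Over all genes tested, 24.0% were called in either direction. These lncRNA genes overlap Tap2, Psmb8 or H2-DMa in position, so that their calls may not be independent. Gm50336, with 9.52 and 10.4 normalized counts in Ctrl, passed narrowly (limma, adjusted p = 0.0497). Replicate 2 relative to replicate 1 was 1.29, 1.29, 1.4 and 1.05 for Tap1 in Ctrl, LPS, Eff and LPSEff, whereas it was 3.75, 2.86, 3.48 and 2.1 for H2-Ab1 nearby.

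**Figure D4:**
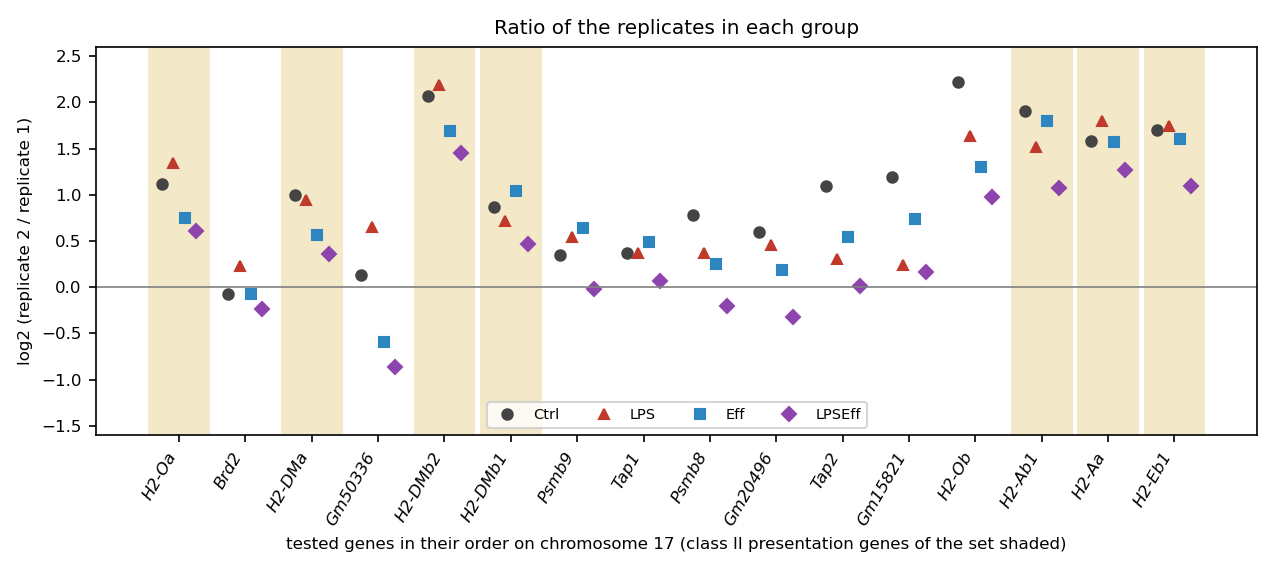
Log2 ratio of replicate 2 to replicate 1 (vertical axis) in each of the 4 groups for the 16 tested genes between H2-Oa and H2-Eb1, in their order on chromosome 17 (horizontal axis, not to scale), with the 7 members shaded. The 7 shaded genes and H2-Ob lie above 0 in all 4 groups, as do Tap1, Tap2 and Gm15821, while Brd2 and Psmb8 have points on both sides of 0.

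Of the factors that Ciita docks on, 1 of 7 was called higher and 1 lower in LPS vs Ctrl and in LPSEff vs Eff without the block. Over all genes tested, 24.0% were called in either direction in LPS vs Ctrl and 19.7% in LPSEff vs Eff. Rfx5, the DNA-binding RFX subunit, had 99 and 124 normalized counts in Ctrl against 255 and 343 in LPS, and 74.5 and 102 in Eff against 217 and 212 in LPSEff (LPS vs Ctrl: log2 difference 1.41 ± 0.26, limma, adjusted p = 0.0059). Rfxank, another RFX subunit, moved the opposite way, from 274 and 283 in Ctrl to 125 and 137 in LPS (-1.08 ± 0.19, adjusted p = 0.00483). The NF-Y genes Nfya, Nfyb and Nfyc were not called in any of the 4 comparisons of groups, and 0 of 7 were called between efferocytic and naïve Mϕ without the block. With it, Creb1, an X box partner, fell on average over stimulation (-0.49, adjusted p = 0.0418).

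Among the genes from the IFNγ receptor to Ciita, Irf1, Jak2 and Irf2 rose in LPS vs Ctrl and Irf1, Jak2 and Ifngr2 in LPSEff vs Eff without the block. Irf1, a transcription factor that acts on the Ciita gene, had 303 and 317 normalized counts in Ctrl and 3043 and 4923 in LPS, a log2 difference of 3.64 ± 0.24 (limma, adjusted p = 6.0e-05). None of Irf1, Irf2, Jak1, Jak2, Ifngr1 and Ifngr2 was called for efferocytosis by limma without the block. With it, Irf1 fell in Eff vs Ctrl (-0.77, adjusted p = 0.0405), and Irf1 and Jak2 fell on average over stimulation.

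Of the 11 cofactors and repressors of Ciita, 4 rose in LPS vs Ctrl without the block (Socs1, Prdm1, Irf8 and Kat2b) and 5 in LPSEff vs Eff (Prdm1, Socs1, Irf8, Bcl6 and Kat2b). The shares of all genes called in either direction were 24.0% and 19.7%. Socs1, which damps JAK signalling, rose by 2.93 ± 0.30 and Prdm1, a known repressor of Ciita, by 2.17 ± 0.25 on the log2 scale in LPS vs Ctrl (limma, adjusted p = 0.000421 and 0.000678). Irf4, a factor of class II-rich dendritic cells, had 377 and 669 normalized counts in Ctrl against 149 and 335 in Eff, and 710 and 1478 in LPS against 422 and 575 in LPSEff, and it fell with efferocytosis with the block, by 1.11 on the log2 scale on average over stimulation (limma, adjusted p = 0.000384).

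A list of 11 genes was drawn up for invariant chain processing and antigen reduction. Of these, Sppl2a, the protease that removes the last fragment of the invariant chain from the membrane, rose by 1.44 ± 0.35 in LPS vs Ctrl and by 1.64 ± 0.35 in LPSEff vs Eff (limma, adjusted p = 0.0206 and 0.0137). Asph, for which these data show no role in this processing, fell by 0.99 in LPS vs Ctrl. Ctsz, a cathepsin, rose by 0.72 in LPSEff vs Eff, and the other 8 were not called in these comparisons without the block. Over all genes tested, 24.0% were called in either direction in LPS vs Ctrl and 19.7% in LPSEff vs Eff. Ctsl, a protease of the invariant chain, was the only one called for efferocytosis, higher in LPSEff than in LPS and on average with the block (log2 difference 0.95, adjusted p = 0.00459). Of the 12 genes of class II ubiquitination and transport, 1 was called higher and 2 lower in LPS vs Ctrl without the block. The tetraspanin gene Cd82 rose by 1.46 ± 0.38, and the ubiquitin ligase gene Marchf8 and the lysosome transport gene Arl8b fell by 0.59 and 0.79 (limma, adjusted p = 0.0252, 0.0426 and 0.019). In LPSEff vs Eff only Arl8b was called without the block. Neither list stood out from the shares of all genes called. With the block, Cd63 and Cd81 were called higher for efferocytosis on average over stimulation, as were 997 of the 16309 genes tested.

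Finally, the genes whose profile was most like that of the class II set were taken by Pearson r over the 8 samples, with log2 levels, as a description. For the mean profile of H2-Aa, H2-Ab1, H2-Eb1 and Cd74 these were Slc30a4 (r = 0.9965), P2ry10, P2rx5, Pbxip1, Sugt1, Kctd14, Btla, Lrba, Zfp277 and Eif2s3y (r = 0.983). Slc30a4, a zinc transporter gene, had 324 and 742 normalized counts in Ctrl against 676 and 1839 in LPS, and 230 and 567 in Eff against 494 and 1100 in LPSEff, so that it shares the replicate difference as well as the order of the groups. For Ciita they were Usp33 (r = 0.993), Sucnr1, Kctd14, Tppp3, Fyn, Sdf4, Efr3a, Fndc5, Ints4 and Gm13991 (r = 0.978), with Kctd14 in both lists. The r of the members with Ciita ran from 0.917 for H2-DMb2 to 0.978 for H2-Aa, over 8 samples that share the replicate difference.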

How the data were processed

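Total RNA of CD45+ BMDMs was sequenced after rRNA depletion. Per the paper's methods and the labels, reads were trimmed (cutadapt), rRNA reads were taken out (Bowtie2), the remainder was aligned to mm39 (STAR) and HTSeq counted reads per gene with default settings. The default takes reads of 1 strand only and leaves out reads with several best places, which lowers genes with near copies. The versions and the annotation are not given in the sources used here. The authors deposited 1 signal per gene and sample, the normalized count, and no file of raw counts was used here. Divided by the value of 1 read, 100% of the values in a sample came out whole (tolerance 0.001), so that reads were recovered. Intervals and floors cover counting error only, and 3481288 to 12020918 reads per sample set the precision.

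Of 55359 identifiers, 54749 were named from GENCODE (vM39, GRCm39). limma 3.58.1 in R 4.3.3 (trend, log2 of normalized count + 1, mean of at least 10, Benjamini-Hochberg over 16309 genes, called under 0.05) compared the 4 groups in 1 fit of 8 samples. A fold change on this scale understates the change of low genes. The replicate numbers come from the sample names. The differences replicate 2 minus replicate 1 correlated across genes between all 6 pairs of groups (r from 0.404 to 0.595), so the numbers were taken to pair the samples, although no source says what same-numbered samples share, and the fit with the replicate block is given beside the main one. edgeR 4.0.16 and DESeq2 1.42.0 were run on the recovered reads. Alternatives were pseudocounts of 0.5 and 5, other filters, only the groups compared, other scalings and leaving out each sample. Count tests with the block, the block without each sample and the block at equal totals were chosen after seeing the data. The steps were tested on simulated data.

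The 9 members and all gene lists were chosen with earlier results of these data known. Named genes are the members, H2-Ob, H2-Ea and H2-Eb2, the genes between the members on chromosome 17, up to 3 largest called changes per pathway list and comparison, and the 10 most alike profiles. Genes named beyond this, such as the NF-Y genes, Batf3, Flt3, Ighm and Col1a1, were chosen after their values were seen. Some results of these lists are not reported here.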

Additional observations from a re-analysis of the deposited data

How the results depend on the processing

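Without the replicate block, 0 of 9 members were called in any comparison under every alternative except DESeq2, which called 1 (Cd74) in LPS vs Ctrl and 1 in LPSEff vs Eff. With the block, limma called 6 in LPS vs Ctrl, 6 in LPSEff vs Eff, 0 in Eff vs Ctrl, 4 in LPSEff vs LPS and 6 for efferocytosis averaged over stimulation, and the block changed no other call of a member. edgeR with the block called 6, 6, 1, 4 and 6 in the same order, DESeq2 with the block 6, 6, 3, 5 and 7, and equal totals with the block 5, 4, 1, 4 and 6. Over leaving out each sample, with and without the block, the count ran from 0 to 7 in LPS vs Ctrl, from 0 to 6 in LPSEff vs Eff, from 0 to 3 in Eff vs Ctrl, from 0 to 5 in LPSEff vs LPS and from 0 to 7 for the average, and it was 0 throughout for the difference between both LPS/IFNγ effects. The count of genes called was 3910, 3213, 41, 126 and 313 in the main test, 6717, 6033, 436, 1137 and 1845 with the block, and 3965, 3518, 207, 368 and 644 by DESeq2, against 3991, 3509, 14, 126 and 311 by edgeR. For the difference it was 0, except 29 by DESeq2 with the block and up to 5 with the block when 1 sample was left out. Equal totals changed the split of higher and lower calls from 2015 and 1895 to 1420 and 4315 in LPS vs Ctrl and from 1753 and 1460 to 1216 and 4362 in LPSEff vs Eff, and quantile normalization changed them to 1844 and 2302 in LPS vs Ctrl and to 1640 and 2100 in LPSEff vs Eff.

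Among the alternatives that kept all 8 samples, the direction of the LPS/IFNγ effects turned for the 3 editor genes only, and no direction turned in Eff vs Ctrl, in LPSEff vs LPS or for the average. At equal totals, with or without the block, LPS vs Ctrl turned to -0.14 for H2-DMa and -0.18 for H2-DMb1, and LPSEff vs Eff to -0.40 for H2-DMa, -0.015 for H2-DMb1 and -0.43 for H2-DMb2. Quantile normalization gave -0.031 (LPS vs Ctrl) and -0.17 (LPSEff vs Eff) for H2-DMa, and edgeR and DESeq2 gave -0.030 and -0.015 for H2-DMb2 in LPSEff vs Eff. The difference between the LPS/IFNγ effects turned to -0.0078 for H2-Aa and -0.0064 for H2-Eb1 at equal totals, with or without the block, to -0.049 and -0.044 in edgeR, to -0.086 and -0.081 in DESeq2, to -0.0070 for Ciita in DESeq2, and to 0.0096 for H2-Ab1 in edgeR with the block. The cause was not tested.

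Leaving out each sample without the block turned 71 of 432 member values. In LPS vs Ctrl the log2 differences ran from -0.32 to 1.58 for Ciita, -0.24 to 0.76 for H2-DMa, -0.21 to 0.66 for H2-DMb1 and -0.63 to 1.55 for H2-DMb2, and in LPSEff vs Eff from -0.24 to 0.33 for H2-DMa, -0.086 to 0.95 for H2-DMb1 and -0.83 to 0.86 for H2-DMb2. In Eff vs Ctrl they ran from -1.47 to 0.039 for Ciita, -1.445 to 0.14 for H2-Aa, -1.38 to 0.53 for H2-Ab1, -1.498 to 0.20 for H2-Eb1, -0.71 to 0.29 for H2-DMa, -0.97 to 0.072 for H2-DMb1 and -1.447 to 0.61 for H2-DMb2. In LPSEff vs LPS they ran from -1.405 to 0.50 for Ciita, -1.51 to 0.285 for H2-Aa, -1.21 to 0.31 for H2-Ab1, -1.48 to 0.26 for H2-Eb1, -0.90 to 0.048 for H2-DMa, -0.59 to 0.12 for H2-DMb1 and -1.95 to 0.23 for H2-DMb2, and for the average from -0.91 to 0.040 for H2-Ab1. The difference ran from -0.69 to 1.21 for Ciita, -0.75 to 0.61 for Cd74, -0.86 to 0.94 for H2-Aa, -0.98 to 0.93 for H2-Ab1, -0.83 to 0.91 for H2-Eb1, -0.71 to 0.29 for H2-DMa, -0.31 to 0.73 for H2-DMb1, -1.53 to 0.64 for H2-DMb2 and -0.80 to 0.53 for H2-Oa. A lone sample was then assumed to vary like the other groups, and a group mean then rests on 1 replicate number, between which the members differed in every group.

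With n = 2 per group, 2 samples set each mean. The 3481288 reads in the shallowest sample limit the genes of low level, among them the lower members such as H2-Oa, with 46 reads there. The fit of only the groups compared gives no value for the averaged effect or for the difference.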
